A study of Mus musculus with 6 samples.

Results

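The genes described here encode molecular chaperones and heat shock proteins of the mouse, with their partner proteins and the heat shock factors. They were chosen by name: the symbols that open with Hspa to Hspe, Hsph, Hsp90, Hsf, Dnaja to Dnajc, Cct or Bag followed by a number, and *Tcp1*. In the table of 20624 genes, 88 symbols fit these names, and *Dnajb11* and 5 symbols ending in -ps (pseudogenes) were left out, which gave 82 members. No member's symbol was repeated. Because the choice was by name, it holds *Hspb11*, which the annotation calls Ift25 and which is a part of the intraflagellar transport machinery, and *Hsf2bp*, a meiotic protein that binds *Hsf2*, and neither is a chaperone in the usual sense.

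Chaperones bind unfolded protein chains and help them reach or keep their folded shape. The 70-kDa class (Hspa genes) works in cycles of ATP use. J proteins (Dnaja, Dnajb and Dnajc genes) start these cycles, and nucleotide exchange factors (among them several Bag genes and *Hsph1*) end them. The 90-kDa class takes over kinases and receptors that are close to folded, and the chaperonins enclose whole proteins in a chamber. In tubule cells of the kidney these proteins have been studied mostly in injury by heat, lack of blood flow and salt stress, and the heat shock factors switch many of their genes on.

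RNA sequencing was done on mDCT15 cells, a mouse cell line derived from the distal convoluted tubule, the nephron segment that takes up sodium chloride through the cotransporter *Slc12a3*. The series holds 3 wild type samples and 3 *Pkd1-/-* samples, in which *Pkd1*, the gene for polycystin-1, was disrupted with CRISPR/Cas9. All were grown in the same medium with fetal bovine serum, and the titles call the 3 samples of a genotype biological replicates. The number of edited clones is not given in the sources used here. The titles call the edited samples *Pkd1-/-*, while another label calls them a knockdown.

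The value used for each gene was the authors' mean normalized count, a single mean over all 6 samples of both genotypes. It follows that the levels below belong to the mDCT15 cells of both genotypes together. The mean carries no spread between replicates and no depth per sample, so no interval or test stands beside the values, and neighbours in an order of levels cannot be said to differ beyond replicate error. A comparison of the genotypes was not made here, and the loss of *Pkd1* could not be checked sample by sample.

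The cell type was checked against marker genes. Of 6 distal convoluted tubule markers, *Wnk4* had a mean normalized count of 413, *Trpm6* of 29.6 and *Klhl3* of 5.70, and *Slc12a3*, *Pvalb* and *Calb1* had no row in the table analysed here. Of 6 kidney epithelial genes, *Pax8* and *Cdh16* were at 4905 and 4680, *Epcam* was at 115, *Krt8* was at 0.980, and Cdh1 and Krt18 had no row. Of the proximal tubule markers, *Lrp2* was at 8826 and *Slc34a1* at 2.04. The markers with a row place the cells in no single segment. The fibroblast genes *Col1a1* and *Col1a2* were at 201 and 2.71, and *Pecam1* of endothelium and *Ptprc* of leukocytes were at 4.68 and 5.36.

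Most members were well above the low end of the table. A mean normalized count of at least 10 was reached by 76 members (92.7%), against 66.5% of all genes. At least 1000 was reached by 43 members (52.4%), against 20.9% of all genes, and at least 5000 by 15 members (18.3%), against 2.21%. The median member had a mean normalized count of 1089, and the median over all genes was 105. Here and below, all genes means every row of the table, among them pseudogenes and noncoding RNAs, while symbols ending in -ps were left out of the members. A comparison with protein-coding genes only was not made, so the part of gene type in these gaps was not tested. Together the 82 members made up 1.33% of the summed mean normalized counts of the table. The 6 members under 10 were *Dnajc5b*, *Hsf5*, *Cct6b*, *Hspa1l*, *Dnajc6* and *Hsf2bp*. The annotation holds 93 protein-coding names that fit the rule and 81 of them had a row under the same name.

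Levels of different genes were compared per kb of exons, that is, the mean normalized count divided by the number of bases covered by any exon of the gene. The exons were those of GENCODE M39, which holds more transcripts than the authors' annotation. Bases exonic only in GENCODE M39 add length without counts, so levels per kb can be too low, and by unlike amounts between genes. On this scale the median of the 76 members at or over 10 was 180 per kb and that of all 13611 genes past the same limit was 80.9. The 75th, 90th, 95th and 99th percentiles of all these genes were 199, 419, 672 and 2009 per kb, and 37, 24, 20 and 4 members lay above them. The levels were unevenly spread: the 10 highest members held 57.0% of the summed level per kb of all members, and *Hsp90ab1* alone held 16.5%.

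**Figure D1:**
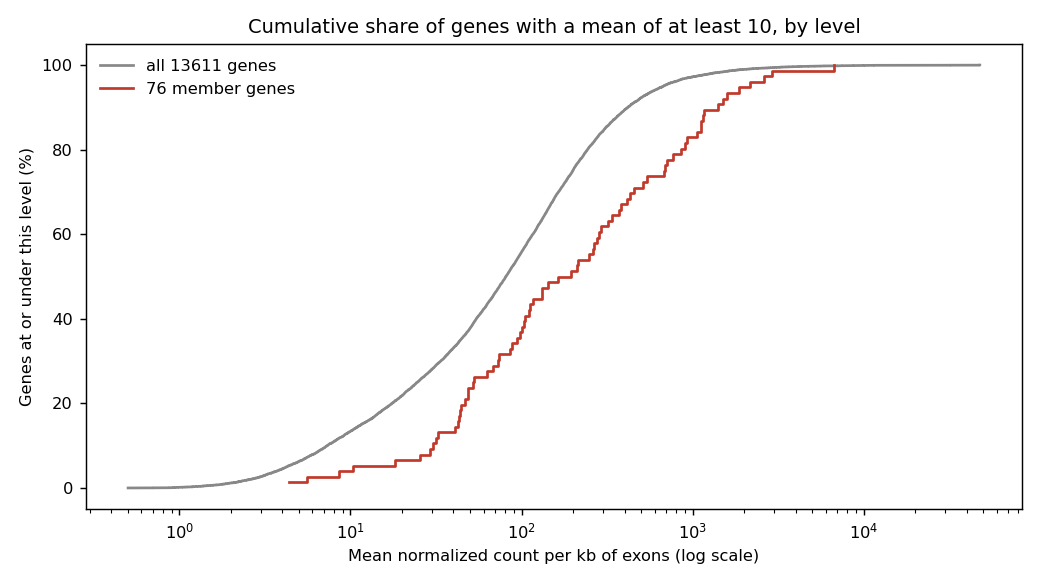
Cumulative share of genes (vertical axis, in percent) at or under a given mean normalized count per kb of exons (horizontal axis, log scale), for the 76 members and all 13611 genes at or over a mean of 10. The curve of the members lies to the right of that of all genes, with medians of 180 and 80.9 per kb.

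By class, the 3 Hsp90 genes held 27.7% of the members' summed level per kb, the 9 CCT genes 22.2% and the 12 Hspa genes 17.2%. The 27 Dnajc genes, the class with the most members, held 9.24%. The Hspb, Bag, Dnaja and Dnajb genes held 6.33%, 5.46%, 3.23% and 3.01%. The Hspb share depended on the length used: it was 10.8% over windows found at 1 place, above the 8.15% of Dnajc there, and 4.19% with the canonical transcript, below the 4.26% of Bag. The mitochondrial pair *Hspd1* and *Hspe1* held 2.77% and 1.68%, *Hsph1* held 0.724%, and the 5 Hsf genes held 0.529%.

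**Figure D2:**
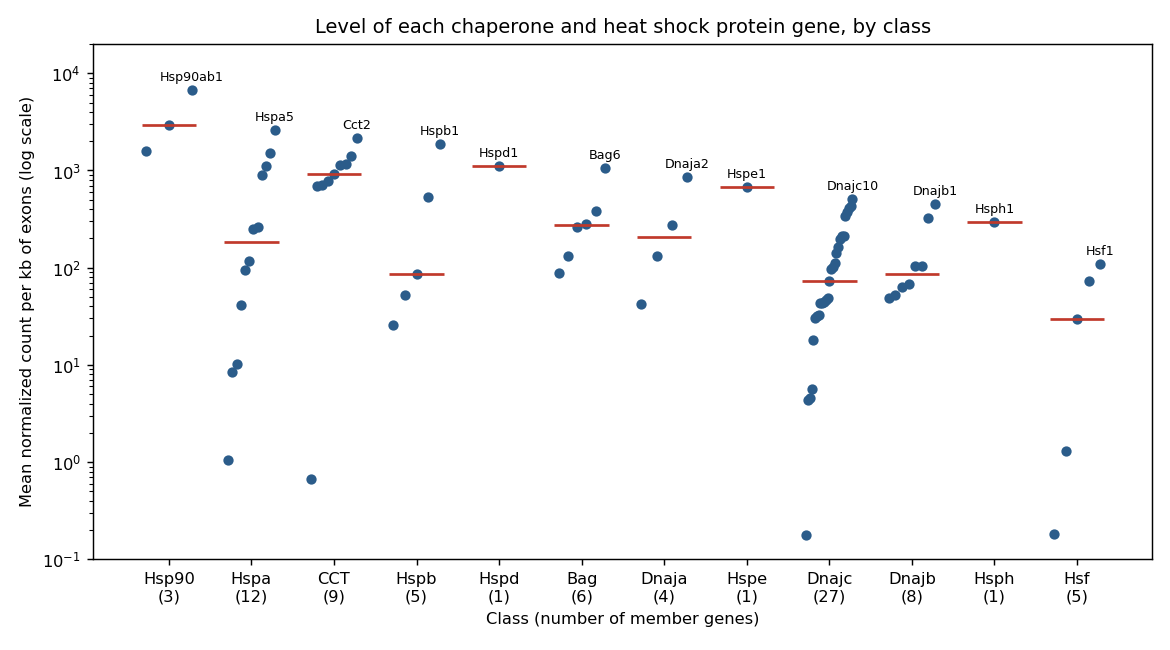
Mean normalized count per kb of exons (vertical axis, log scale) of each member, by class (horizontal axis, number of genes in brackets). Each point is a gene, the red line is the median over all members of the class, and the highest gene of each class is named. *Hsp90ab1* (6662 per kb) is the highest point, and the CCT, Dnajc and Hspa genes run over the widest ranges, that of CCT down to *Cct6b* (0.673 per kb).

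The Hsp90 class came first. *Hsp90ab1*, the cytosolic form made at all times (chromosome 17, 45878552 to 45891949, minus strand, GRCm39), had a mean normalized count of 35979, which was rank 10 in the whole table, and a level of 6662 per kb. *Hsp90b1* (GRP94, chromosome 10, 86526073 to 86541446, minus strand), the form of the endoplasmic reticulum (ER), was at 17912, rank 32, or 2930 per kb. *Hsp90aa1* (chromosome 12, 110656842 to 110669166, minus strand), the cytosolic form that heat induces, was at 7296, or 1585 per kb. The level of *Hsp90ab1* per kb was 4.20 times that of *Hsp90aa1*, and the ratio ran from 2.17 to 6.44 over 4 measures of gene length. The lowest ratio came with the 42-base windows (the read length) of the exons that occur at 1 place in the genome as the length, which 50.5% of the windows of *Hsp90aa1* and 94.3% of those of *Hsp90ab1* do. The windows were judged singly, although the reads came in pairs. A read in a repeated window may still have been placed through its mate, so levels over these windows can be too high.

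The 12 Hspa genes ran from 2625 to 1.06 per kb. At the top stood the forms of 3 compartments: *Hspa5* (BiP, chromosome 2, 34661982 to 34668880, plus strand) of the ER at 2625 per kb, *Hspa9* (mortalin) of the mitochondrion at 1504, and *Hspa8* (Hsc70, chromosome 9, 40711630 to 40731039, plus strand), the cytosolic form made at all times, at 1116. With the canonical transcript as the length their order turned, and *Hspa8* was at 4045, *Hspa5* at 2943 and *Hspa9* at 2278. Per kb of exons, *Hspa4*, a large relative that acts as an exchange factor, was at 905 and its relative *Hspa4l* at 248. *Hspa13* of the ER was at 261 and *Hspa14*, a partner of the ribosome, at 117. With the canonical transcript *Hspa14* was at 516, above *Hspa13* (437) and *Hspa4l* (333). *Hspa2*, best known from the testis, was at 94.4 per kb of exons and the atypical *Hspa12a* at 10.3. The heat-inducible genes were low, with *Hspa1b* at 41.1 per kb and *Hspa1a* at 8.52. *Hspa1l*, a form made in the testis, was at 1.06. Per kb, *Hspa8* was 27.2 times as high as *Hspa1b*, and this ratio ran from 13.0 to 98.5 over the 4 measures of length.

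*Hspa1a* and *Hspa1b* lie side by side on the minus strand of chromosome 17 with 9951 bases between them, and *Hspa1l* follows 531 bases past *Hspa1a* on the other strand. The coding sequences of *Hspa1a* and *Hspa1b* were 99.4% identical: of 1926 aligned positions, 8 were substitutions and 3 were gaps. A stretch of 60 coding bases that holds 2 of the substitutions, shown as an example of how alike the genes are, lies at coding bases 1357 to 1416 of both genes (chr17:35189486-35189545 for *Hspa1a* and chr17:35176568-35176627 for *Hspa1b*, GRCm39, minus strand, in the coding exon). The capitals mark the bases that differ.
Hspa1a: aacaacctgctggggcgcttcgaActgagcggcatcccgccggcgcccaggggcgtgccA
Hspa1b: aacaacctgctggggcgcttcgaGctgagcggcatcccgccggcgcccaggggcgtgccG
The genes had 1780 exonic windows of 42 bases in common, and 37.4% of the windows of *Hspa1a* and 35.0% of those of *Hspa1b* were found at 1 place. Counting those windows only, *Hspa1b* stood at 119 and *Hspa1a* at 23.1 per 1000 windows, a ratio of 5.16, beside 4.82 per kb of exons. Other pairs were easier to tell apart. Coding identity was 73.6% between *Hspa8* and *Hspa2*, 75.5% between *Hsp90aa1* and *Hsp90ab1*, 82.8% between *Hspa1a* and *Hspa1l* and 76.1% between *Cct6a* and *Cct6b*.

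The chaperonin CCT of the cytosol folds actin and tubulin in a pair of rings, each built from 8 different subunits in equal number. All 8 ring genes were high. *Cct2* (chromosome 10, 116886897 to 116899744, minus strand) led with 2154 per kb, then came *Tcp1* with 1408, *Cct6a* with 1170, *Cct8* with 1149, *Cct5* with 924, *Cct4* with 772, *Cct3* with 706 and *Cct7* with 694. Their mean normalized counts, before division by length, ran from 4991 for *Cct8* to 7912 for *Tcp1*. The highest was 3.10 times the lowest per kb, and the coefficient of variation over the 8 genes was 43.5%. *Cct2* was the highest under all 4 measures of length, while the lowest was *Cct7* or *Cct4*. *Cct6b*, the testis form of the sixth subunit, was at 0.673 per kb.

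**Figure D3:**
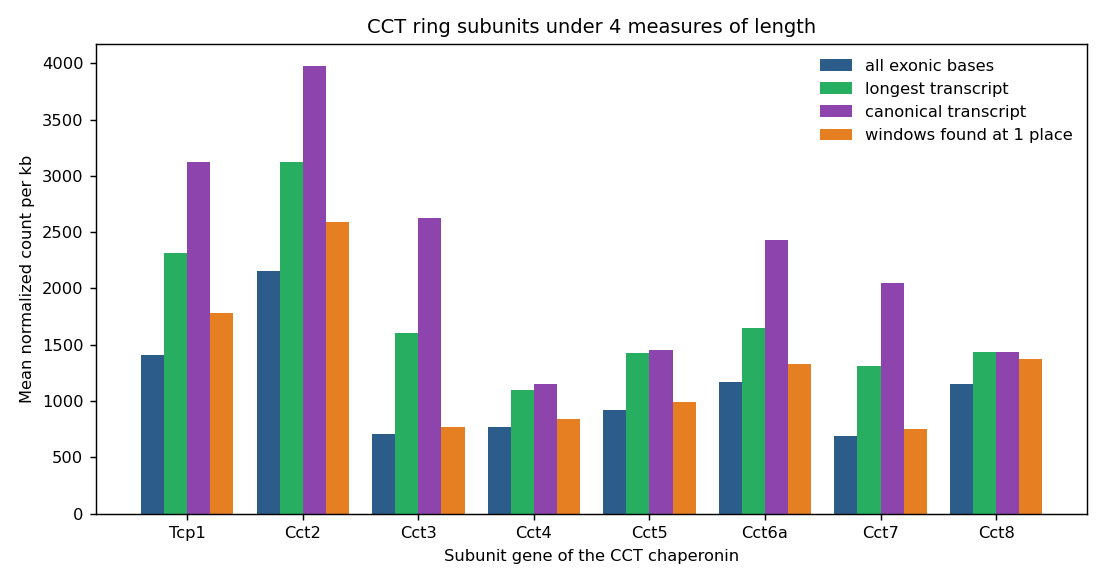
Mean normalized count per kb (vertical axis) of the 8 CCT ring subunit genes (horizontal axis) under 4 measures of length, with each bar a single pooled mean over the 6 samples and no error. *Cct2* has the tallest bar in each color, and the other subunits change order between measures.

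In the mitochondrion the chaperonin *Hspd1* (Hsp60) and its lid *Hspe1* (Hsp10) work together, and their genes lie head to head on chromosome 1. *Hspd1* was at 1117 per kb (mean normalized count 4168) and *Hspe1* at 679 (mean normalized count 1210). The ratio of the 2 levels was 1.64, and between 1.000 and 2.13 over the 4 measures of length. Only 62.7% of the windows of *Hspd1* and 80.5% of those of *Hspe1* occur at 1 place.

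Among the small heat shock proteins, which hold unfolding proteins without using ATP, *Hspb1* (Hsp25, chromosome 5, 135916760 to 135918417, plus strand) was the highest with 1855 per kb and a mean normalized count of 1937. *Hspb8*, which works with *Bag3*, was at 539 per kb, and *Hspb2* at 85.7. *Hspb6* and *Hspb11* were at 52.2 and 25.6 per kb of exons. With the canonical transcript as the length *Hspb11* was at 277, above *Hspb2* (101) and *Hspb6* (67.3). Counted over windows found at 1 place, 41.3% of all its windows, *Hspb1* stood at 4879 per 1000 windows and second place among all members. This level can be too high, because the windows take no account of read pairs. Of the exonic bases of *Hspb2*, 62.1% overlap another gene, and the largest single overlap is with *Cryab*.

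The J proteins bring clients to the Hspa proteins and start their ATP use. *Dnaja2*, a general cytosolic J protein, was the highest of the 39 per kb of exons with 854 (with the canonical transcript *Dnajc8* was above it, at 1478 against 965), and *Dnaja1*, *Dnaja3* of the mitochondrion and *Dnaja4* were at 277, 132 and 42.7. Of the 8 Dnajb genes, the cytosolic *Dnajb1* was at 454 and the ER membrane proteins *Dnajb12* and *Dnajb14* at 321 and 68.0. *Dnajb4* and *Dnajb2* were at 105 and 103, and *Dnajb9* of the ER, *Dnajb6* and *Dnajb5* were lowest per kb of exons with 63.2, 52.6 and 48.6. For the 25 Dnajc genes at or over the limit of 10, the median was 97.7 per kb. Per kb of exons they were led by 2 ER proteins, *Dnajc10*, a disulfide reductase, at 513 and *Dnajc3* (p58IPK) at 432. The spliceosome partner *Dnajc8*, the histone chaperone *Dnajc9* and the vesicle protein *Dnajc5* followed at 412, 370 and 340. This order did not hold under every length: *Dnajc7*, a partner of Hsp70 and Hsp90 named here after its values were seen and at 195 per kb of exons, was above *Dnajc10* with the longest transcript (781 against 735), and with the canonical transcript *Dnajc8* (1478), *Dnajc9* (920) and *Dnajc7* (906) were above *Dnajc10* (835). The lowest 3 were *Dnajc5b* at 4.58, *Dnajc22* at 4.38 and *Dnajc6*, the auxilin of neurons, at 0.179. *Dnaja1* shares 84.2% of its exonic bases with other genes, and the largest single overlap is with *Smu1*.

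Of the Bag genes, *Bag6*, which guards membrane proteins on their way to the ER, was the highest at 1062 per kb. *Bag1* was at 380, *Bag3*, a partner of *Hspb8* in selective autophagy, at 283, *Bag2* at 264, *Bag4* at 131 and *Bag5* at 87.6. *Hsph1* (Hsp110) was at 292 per kb. The level of *Hspa4*, its close relative, was 3.09 times that of *Hsph1*.

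The heat shock factors are the transcription factors of the heat shock response. The Hsf class was the lowest by its share of the summed level per kb of exons (0.529%), with the canonical transcript (0.623%) and over windows found at 1 place (0.444%). It was also the lowest by the median of genes at or over 10 (72.5 per kb), which was taken per kb of exons only. *Hsf1*, the main factor, was at 110 per kb (mean normalized count 1105) and *Hsf2* at 72.5 (mean normalized count 768), a ratio of 1.52, which was 1.00 with the length of the canonical transcript, so their order was not settled by these data. *Hsf4*, known from the lens, was at 29.3 per kb, and *Hsf5* of germ cells and *Hsf2bp* were at 1.29 and 0.184.

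Several members have copies elsewhere in the genome, mostly processed pseudogenes, and the authors' counter by default leaves out reads that align to more than 1 place. Over the members, a median of 97.6% of the exonic windows were found at 1 place, 15 members were under 90% and 3 were under 50% (*Hspb1*, *Hspa1a* and *Hspa1b*). *Hspa8* had 75.6% such windows, shared 1480 windows with the processed pseudogene *Gm15459* (chromosome 5, 5831615 to 5833555, minus strand), and had at least 100 windows in common with 9 genes. *Gm15459* itself had a mean normalized count of 3364, which was 34.7% of that of *Hspa8*. Other copies were lower. *Gm12346* shared 1362 windows with *Hsp90aa1* and had a mean normalized count of 193, *Hsp25-ps1* shared 436 with *Hspb1* and stood at 23.9, and *Hspd1-ps3* shared 832 with *Hspd1* and stood at 11.4. Exonic bases were also shared with genes annotated over the same place on either strand. The shares were 44.2% for *Hspa5*, 34.9% for *Hsp90ab1* and 29.9% for *Tcp1*. The largest single overlap of *Hspa5* was with *Rabepk*, that of *Hsp90ab1* with *Gm56882* and that of *Tcp1* with *Acat3*. The overlaps are those of GENCODE M39, and the annotation on which the authors counted may not hold all of them. The part of these copies and overlaps in the members' levels was not tested.

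**Figure D4:**
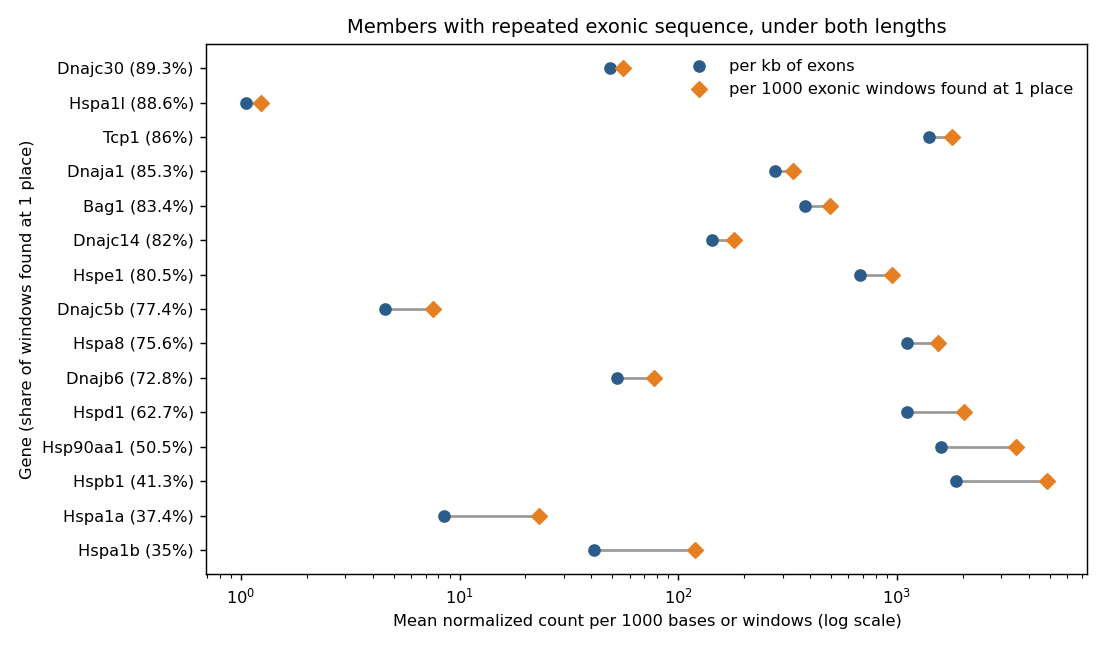
Mean normalized count per kb of exons (circles) and per 1000 exonic windows of 42 bases found at 1 place (diamonds) for the 15 members with under 90% such windows (horizontal axis, log scale), with that share in brackets. The level about doubles or more for the lowest 4 rows (*Hsp90aa1*, *Hspb1*, *Hspa1a* and *Hspa1b*) and shifts less for the other rows. Windows across splice junctions are not counted, which by itself raises the diamonds. Windows are also judged without the mate of a read pair, which can raise the diamonds further.

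The promoters were read from RefSeq (build GRCm38.p6), which gave 64 of the members a window of 250 bases before to 50 after a start site. No entry was found for *Dnajc11*, *Hspa13*, *Hsp90aa1*, *Hsp90ab1*, *Cct4*, *Hspb2*, *Hspa8*, *Hspa9*, *Bag4*, *Dnajc5b*, *Hsf4*, *Hsf1*, *Dnajc2*, *Dnajc22*, *Dnajc18*, *Dnajc30*, *Dnajc12* and *Dnajc5*. The heat shock element, which the heat shock factors bind, was searched as GAA, TTC and GAA or as TTC, GAA and TTC, each 2 bases apart. It was present in 4 of 64 members (6.25%), *Dnajb6*, *Hspd1*, *Hspe1* and *Hsph1*, and in 0.662% of 27025 genes with a promoter. With 1 mismatch allowed it was found in 16 of the 64 members and in 8.15% of all genes, and as 2 units only in 19 members (29.7%) and in 17.0% of all genes. *Hspa1a*, *Hspa1b*, *Hspb1* and *Dnaja1* had no strict match but were found by both looser searches, while *Dnajb1* was found by none of the searches. The ER stress element, bound by factors of the unfolded protein response, was searched as CCAAT and CCACG with 9 bases between them on either strand. It was found in 3 members (4.69%), *Dnajc3*, *Hsp90b1* and *Hspa5*, all ER proteins, and in 0.137% of all genes. The box CCAAT alone, which is contained in the ER stress element, was in 42.2% of the members and 41.1% of all genes, and TATAAA in 4.69% of the members and 15.7% of all genes.

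For each of 6 genes, 1 match is shown with 15 bases on each side, and the capitals mark the element. These matches show the spacing of the units and that the elements of *Hspd1* and *Hspe1* are the same bases. All are from GRCm38.p6 and are written on the strand of the gene: *Hspa5* at chr2:34772010-34772058 (plus), *Hsp90b1* at chr10:86705623-86705671 (minus), *Dnajc3* at chr14:118937812-118937860 (plus), *Hspd1* and *Hspe1* at chr1:55088044-55088086 (minus and plus), and *Dnajb6* at chr5:29735837-29735879 (plus).
Hspa5: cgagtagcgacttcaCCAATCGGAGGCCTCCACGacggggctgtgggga
Hsp90b1: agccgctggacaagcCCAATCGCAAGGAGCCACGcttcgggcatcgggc
Dnajc3: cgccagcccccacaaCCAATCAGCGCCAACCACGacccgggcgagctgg
Hspd1: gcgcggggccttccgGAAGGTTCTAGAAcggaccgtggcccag
Hspe1: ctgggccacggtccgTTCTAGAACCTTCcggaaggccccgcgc
Dnajb6: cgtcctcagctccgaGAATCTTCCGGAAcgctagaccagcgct
The ER stress element of *Hspa5* ran from base -65 to base -47 from the start site, that of *Dnajc3* from -105 to -87, and *Hsp90b1* held a match at -212 to -194 and another, on the other strand, at -107 to -89. In *Hspd1* and *Hspe1* a pair of overlapping heat shock matches formed 1 run of alternating units, from -144 to -127 of *Hspd1* and from -89 to -72 of *Hspe1*. The match of *Hsph1* (chr5:149636287-149636315, minus strand, GRCm38.p6) lay past the start site, 15 to 27 bases past 1 annotated start and 36 to 48 past the other, and is shown only up to the end of the second window, 1 base after the element.
Hsph1: gtaaaatgctgcagaTTCTGGAAAGTTCt
The level per kb of the genes with an element ran from 52.6 for *Dnajb6* to 1117 for *Hspd1* for the heat shock element and from 432 for *Dnajc3* to 2930 for *Hsp90b1* for the ER stress element. A match is a run of letters and not a measured binding site.

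**Figure D5:**
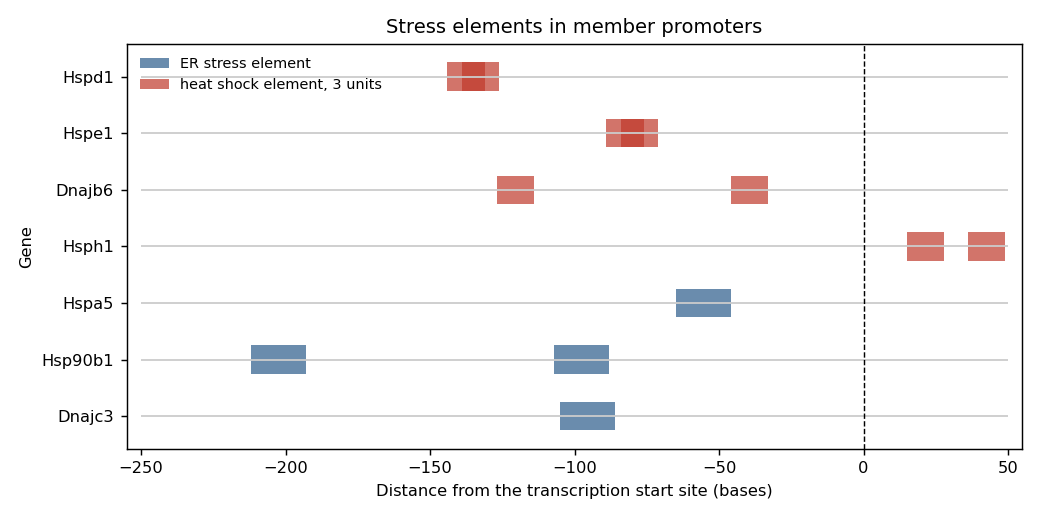
Position of each heat shock element of 3 units (red) and each ER stress element (blue) from the start site (horizontal axis, in bases) in the promoter of the 7 members that hold one (vertical axis). The genes *Hspd1* and *Hspe1* show overlapping matches in darker red, and genes with 2 start sites (*Dnajb6* and *Hsph1*) show the same bases at 2 distances.

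Partners of these chaperones with other names were described from lists. All 11 HSP90 co-chaperones on a list reached the limit of 10, and their median was 275 per kb, with *Stip1*, which joins Hsp70 to Hsp90, at 2176. The 9 prefoldin and CCT helper genes had a median of 192, the 5 nucleotide exchange factors of other names 79.6, and the 4 J proteins of other names 185. The 6 organelle chaperones of other names had a median of 598, and the lectin chaperones of the ER, *Calr* and *Canx*, were at 5244 and 2193 per kb, beside 2930 for *Hsp90b1* and 2625 for *Hspa5*.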

How the data were processed

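RNA of 3 wild type and 3 *Pkd1-/-* samples of mDCT15 cells was depleted of ribosomal RNA and sequenced as pairs of 42 bases. Per the labels and the paper's methods, the authors trimmed reads with Trim Galore 0.4.5, mapped them with STAR 2.7.5a to GRCm39, counted them per gene with HTSeq 0.11.0 and used DESeq2 1.22.0 in R 3.5.3. Samples were grouped by their titles. The deposited signal, the authors' mean normalized count over all 6 samples, was the only measurement used. The table's other columns hold the authors' comparison of the genotypes (fold change, standard error, statistic and p-values) and were not used. The authors state a minimum of 5 counts per sample, but the lowest mean is 0.618. Depth per sample is unknown, and 0 columns were left unmatched.

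Exons came from GENCODE M39 (GRCm39), which holds 97.6% of the identifiers and more transcripts than the authors' annotation. Alternative lengths were the longest transcript, the canonical transcript and windows found at 1 place, a count that was tested on simulated data. Rank and ratio were described without a test. Every member of the Hsp90, Hspa, Hsph, Hspb, Hspd, Hspe, Hsf and CCT classes was named, with the 5 highest and 3 lowest of the other classes and those under a mean of 10. Members and lists were chosen with earlier results of these data known. Protein features were not analysed here. Python 3.11.15, numpy 2.4.6, pandas 2.3.3, numba 0.67.0, Biopython 1.88 and matplotlib 3.10.9 were used.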

Additional observations from a re-analysis of the deposited data

How the results depend on the processing

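No paired analysis was possible because the table gives a single mean over all 6 samples, and leaving out a replicate could not be done for the same reason. The number of members over the limit of 10 was 76, and it was 78 and 75 with limits of 5 and 20, 67 without the Bag and Hsf genes and 77 with *Dnajb11*. The members' share of all mean normalized counts, 1.33%, was 1.25% without the Bag and Hsf genes, 1.34% with *Dnajb11*, and 1.46% when the noncoding RNAs *Gm26917*, *Gm42418* and *Rn7sk*, 8.99% of the total, were taken out of it (chosen after seeing the data). Levels per kb depend on the length used. With the longest transcript, windows found at 1 place, and the canonical transcript (also chosen after seeing the data), the median of 180 per kb became 271, 197 and 351, the share of the 10 highest members of 57.0% became 55.7%, 61.7% and 57.7%, and the CCT ratio of 3.10 became 2.85, 3.44 and 3.46. Without a limit on the mean the median was 132. Over 1.5 times higher levels than with all exonic bases were given by the longest transcript for 33 members, by the windows for 6 and by the canonical transcript for 50, and lower by that factor for 0. Among the 10 highest members, 7 were shared by all 4 lengths: *Cct2*, *Hsp90ab1*, *Hsp90b1*, *Hspa5*, *Hspa9*, *Hspb1* and *Tcp1*. The heat shock element was in 4 member promoters, in 16 with 1 mismatch and in 19 as 2 units. Genes at a mean of a few counts are limited by depth, which is unknown.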

Other observations

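The members were spread over the genome, with 9 on chromosome 4, 7 each on chromosomes 2, 5 and 17, and 1 on chromosome 6. The processed pseudogene *Gm15459* had 1733 mean normalized counts per kb of its exons, beside 1116 for *Hspa8*, the gene it resembles. This order turned with the longest transcript (2138) and the canonical transcript (4045) as the length of *Hspa8*. It held with windows found at 1 place, where *Hspa8* was at 1542. The length of *Gm15459* was kept at its exonic bases throughout. The reads behind this value were not analysed here.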
